A study of Mus musculus with 3 samples.

Results

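Cells make cholesterol from acetyl-CoA through mevalonate, isoprenoids and squalene, and long-chain fatty acids from acetyl-CoA through malonyl-CoA. The 37 genes described here include those of 8 mevalonate pathway enzymes and 11 enzymes from the making of squalene to cholesterol. The others are 5 members of the SREBP control system, 5 genes of sterol transport and its LXR control, and 8 enzymes of fatty acid synthesis. The 37 genes were chosen by symbol from a fixed list, with no filter on measured values but with earlier results of these data known. All 37 were found among the 17121 genes of the deposited table.

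RNA was sequenced from mouse CD8+ T cells, the cytotoxic T cells, isolated from spleen and lymph nodes of wild-type animals and kept in culture for 3 days. Every culture received antibodies to CD3 and CD28 at 1 µg/ml, which stimulate the T cell receptor (TCR). The young TCR group (mice of 6 weeks) received nothing else. To the young TRM group (also 6 weeks) the cytokines IL-15 (20 ng/ml) and TGF-beta (5 ng/ml) were added, and the aged TRM group (18 months) had the same cytokines. TRM stands for tissue-resident memory T cells, which those cytokines favour. Each group was 1 sample, the number of animals behind it was not stated, and an aged group without cytokines was not analysed here. The table held 2 numbered columns per sample whose meaning is not given. They were summed and taken as repeat measurements of 1 sample. Differences between mice or cultures could therefore not be estimated, and no comparison carries a test.

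SREBP transcription factors switch on this pathway. SREBP-2, from Srebf2, acts mainly on sterol genes and SREBP-1, from Srebf1, also on fatty acid genes. Both stay in the endoplasmic reticulum while sterol is plentiful, because INSIG proteins hold their escort SCAP there, and both are cut and sent to the nucleus when sterol runs low. LXR receptors, of which LXR-beta comes from Nr1h2, work the other way: oxysterols activate them, and their targets export cholesterol (Abca1, Abcg1) or destroy lipoprotein receptors (Mylip). Dividing T cells raise SREBP activity and lower LXR signalling to build membranes.

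Levels are in CPM (counts relative to library size, with trimmed-mean or TMM scaling), followed in brackets by the values of columns 1 and 2. Folds are ratios of CPM with a 95% exact counting interval, which covers counting error only, and log2 ratios are of CPM plus 1. The words rose and fell are kept for genes whose log2 ratio reached 0.585 in size (1.5-fold), with an interval that excluded 1 and both columns of one sample above both of the other. Where only the last condition is meant, the columns are said not to overlap. The columns held 16084855 to 20245228 reads, and between columns of the same sample 0.441% to 0.57% of genes differed by 1.5-fold with an interval excluding 1, but 0 of the 37 members did. The median member differed by 1.02- to 1.05-fold between columns, and the widest gap was 1.18-fold (Tm7sf2 in young TRM). Over genes with enough reads, the variance between columns of the same sample was on average 2.31 to 3.04 times that of counting alone. The counting intervals are therefore too narrow even for repeat columns.

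Per transcript length, in the deposited TPM, Scd2 was the most abundant member. Its desaturase puts the double bond into stearate and palmitate, and its TPM was 581 in young TCR, 429 in young TRM and 637 in aged TRM. The farnesyl diphosphate synthase gene Fdps followed with 291, 301 and 392 TPM, and Hmgcs1, the HMG-CoA synthase gene at the entry to mevalonate, with 201, 164 and 237 TPM. The cholesterol exporter gene Abca1 was the lowest, with 0.625, 0.580 and 0.405 TPM. All 19 sterol enzyme genes were thus detected well above the level of this exporter gene. The 19 sterol synthesis enzymes summed to 1482, 1374 and 1846 TPM, so the aged TRM sum was 34.4% above that of young TRM. The 8 fatty acid genes summed to 1076, 877 and 1158 TPM, of which Scd2 was the largest part. With it, the sum dropped by 18.5% with cytokines and was 31.9% higher with age, and without it the sums were 495, 448 and 520.2 TPM, which dropped by 9.57% with cytokines and were 16.1% higher with age.

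**Figure D1:**
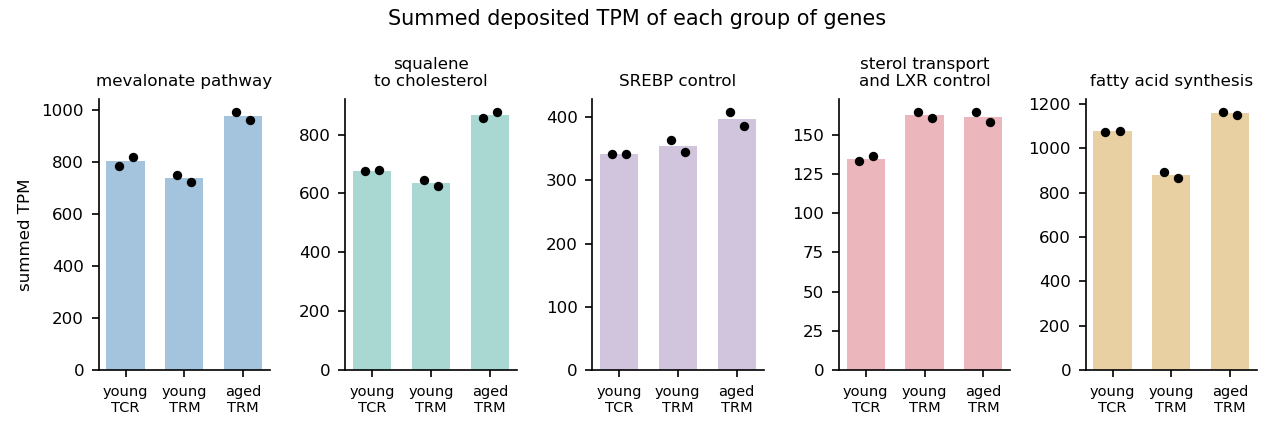
Summed deposited TPM (vertical axis, from 0, each panel on its own scale) of the genes of each role in young TCR, young TRM and aged TRM; bars are means of the 2 columns of a sample and points the columns. The mevalonate, squalene-to-cholesterol and fatty acid sums were lowest in young TRM and highest in aged TRM (squalene to cholesterol: 677, 635 and 868 TPM).

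With added IL-15 and TGF-beta, young cells had slightly less RNA for most sterol and fatty acid enzymes and more for Abcg1, Mylip and Nr1h2 of the LXR branch. Abcg1 rose 1.87-fold and Elovl6 fell 1.62-fold, and these were the only members past the rule: 1 of 37 rose, where 9.38% of all 11588 genes tested did, and 1 of 37 fell, where 9.08% did. None reached 2-fold (background 4.16% higher and 3.6% lower). By smaller differences, 22 of 37 members had columns that were lower without overlap (37.5% of all genes) and 10 had higher ones (41.4%). Of these members, Pmvk, Cyp51, Hsd17b7, Dhcr7, Insig1, Insig2 and Fads1 had a counting interval that included 1. The members' median log2 ratio was -0.079, against 0.016 for all genes tested. With library totals only these medians were -0.13 and -0.037.

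In the age comparison the sterol enzymes were higher and Abcg1 was lower. In aged TRM all 19 sterol synthesis enzymes were higher than in young TRM with no overlap of columns, by 1.05-fold to 1.51-fold, and Abcg1 fell 1.77-fold. The counting interval included 1 for Ggps1 and Mvk. By the rule 0 of 37 members rose (6.29% of the 11575 genes tested did) and 1 of 37 fell (3.82%). None passed 2-fold (2.24% higher and 1.14% lower over all genes). Columns were higher without overlap for 30 of 37 members, against 35.9% of all genes, and lower for 5, against 38.1%. Among genes of at least 10 CPM these backgrounds were 35% and 40.5%. The members' median log2 ratio was 0.25 and that of all genes tested -0.0059. Both comparisons contain the young TRM sample, so a chance high or low value there shifts them in opposite directions.

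**Figure D2:**
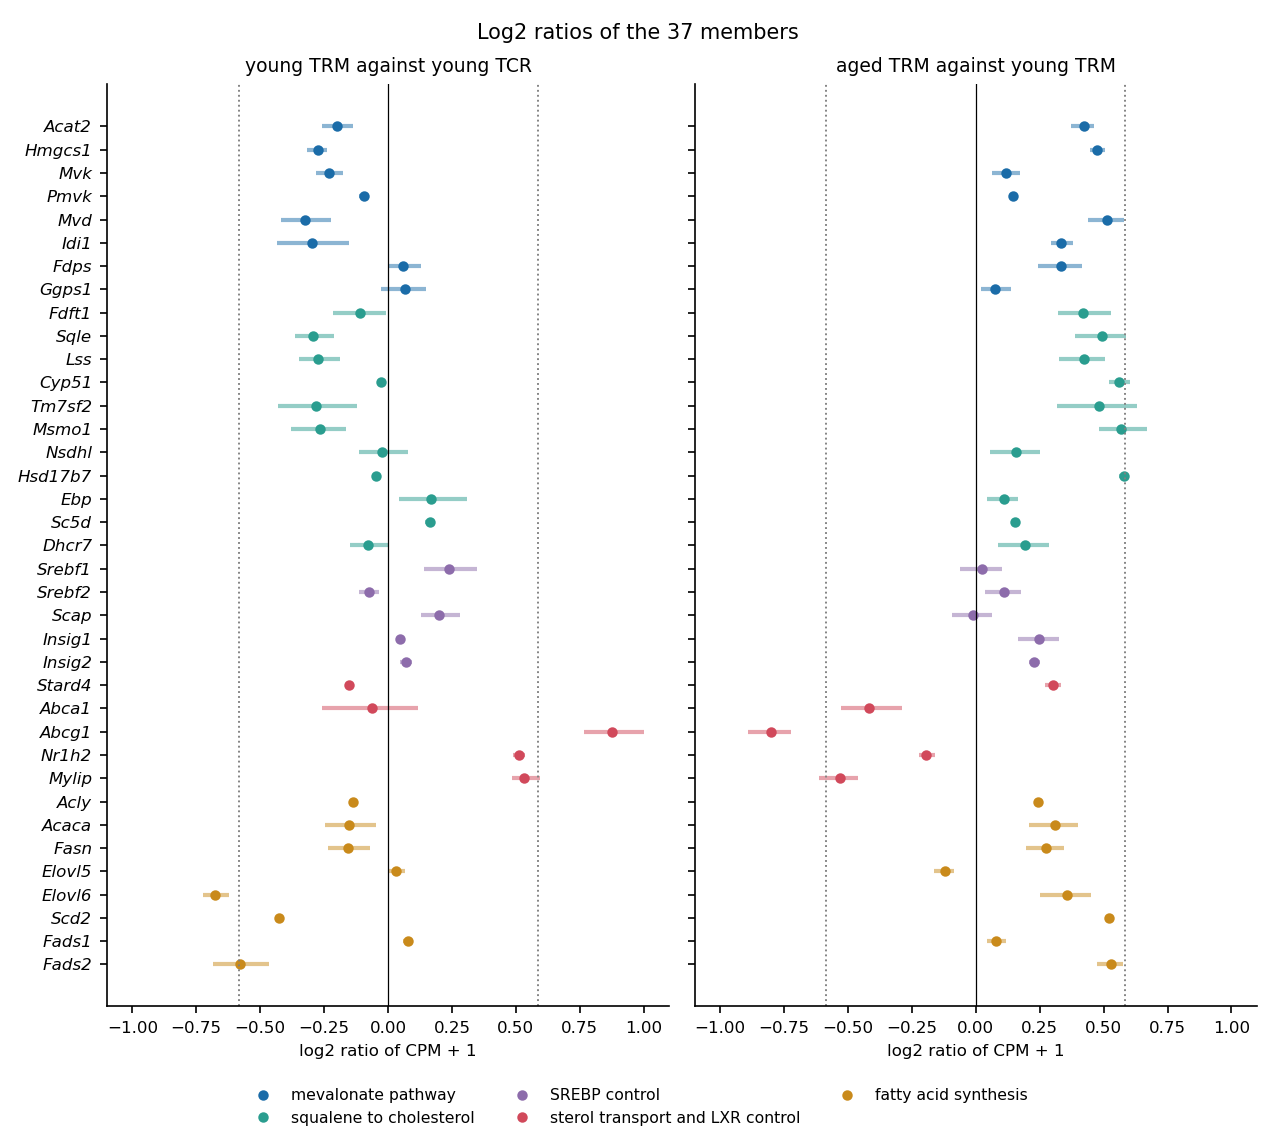
Log2 ratio of CPM plus 1 for each of the 37 members (rows, coloured by role) in young TRM against young TCR (left) and aged TRM against young TRM (right). Points are the summed columns, bars span the 4 pairings of the columns, and dotted lines mark 1.5-fold. On the right, all 19 enzymes of the mevalonate and squalene-to-cholesterol groups lie above 0, while Abcg1, Mylip, Abca1 and Nr1h2 lie below.

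Mevalonate pathway genes convert acetyl-CoA into the isoprenoid farnesyl diphosphate. Hmgcs1 (gene ID 208715, chromosome 13, positions 119690351 to 119708260 of GRCm38.p6) had 355 CPM (351 and 359) in young TCR, 293 CPM (288 and 298) in young TRM and 408 CPM (410.0 and 406) in aged TRM. The young TRM columns lay below all others and the aged TRM columns above. The cytokines went with a 1.21-fold lower level (interval 1.18 to 1.24), and age with a 1.39-fold higher one (1.36 to 1.42). Mvd, the decarboxylase that makes isopentenyl diphosphate, had 44.2 CPM (45.8 and 42.6), 35.0 CPM (36.3 and 34.0) and 50.5 CPM (49.6 and 51.4). That was 1.26-fold lower (1.17 to 1.36) with cytokines, the widest difference of this group, and 1.44-fold higher (1.34 to 1.55) with age. Acat2, which joins acetyl-CoA units, had 81.4, 70.6 and 94.9 CPM, and Idi1, the isomerase that follows Mvd, had 79.7, 64.7 and 81.9 CPM. The Idi1 columns of young TCR (73.3 and 86.1) enclosed those of aged TRM (82.8 and 81.0), so these samples could not be ordered for Idi1.

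The kinase genes Mvk and Pmvk had smaller differences with age. Mvk had 18.7, 15.8 and 17.3 CPM and was the only sterol enzyme whose level was below young TCR in aged TRM as well (log2 ratio -0.11). Pmvk had 48.6, 45.5 and 50.5 CPM. Fdps and Ggps1, which build the farnesyl and geranylgeranyl chains, were the 2 genes of the group that were not lower in young TRM. Fdps had 180.3 CPM (179 and 182), 188 CPM (196 and 182) and 237 CPM (243 and 232), with columns of the young samples that overlapped and a 1.26-fold higher level in aged TRM (1.22 to 1.30). Ggps1 had 51.0, 53.4 and 56.3 CPM. Of the 8 genes, 6 had lower columns without overlap in young TRM than in young TCR (37.5% of all genes did). Their group median log2 ratio was -0.22, and the Pmvk interval included 1. In aged against young TRM 8 had higher columns (35.9% of all genes), with a median of 0.33.

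Fdft1, which makes squalene, and Sqle commit the pathway to sterols, Lss closes the rings to lanosterol, and the other 8 genes trim lanosterol to cholesterol. Sqle, the squalene epoxidase and a flux-controlling step, had 118 CPM (119 and 118) in young TCR, 96.4 CPM (102 and 91.9) in young TRM and 136 CPM (134 and 139) in aged TRM. The samples did not overlap, with 1.23-fold less (1.18 to 1.28) under cytokines and 1.41-fold more (1.35 to 1.48) with age. Lss had 80.4, 66.3 and 89.1 CPM and Fdft1 93.4, 86.6 and 116 CPM, in the same order.

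Removal of the methyl groups of lanosterol held the 3 members whose level was highest in aged relative to young TRM. Hsd17b7 (gene ID 15490, chromosome 1, positions 169949535 to 169969242), a reductase of this step, had 27.4 CPM (27.5 and 27.2), 26.5 CPM (26.5 and 26.4) and 40.1 CPM (39.6 and 40.6). The young samples were close together and aged TRM stood 1.51-fold above young TRM (1.40 to 1.64). Its log2 ratio of 0.58 was just short of the rule. Msmo1, the sterol methyl oxidase, had 99.8 CPM (96.5 and 103), 82.8 CPM (79.0 and 85.9) and 123 CPM (120.5 and 126), a 1.49-fold difference with age (1.42 to 1.56, log2 ratio 0.57). Cyp51 (gene ID 13121, chromosome 5, positions 4080674 to 4104697), the lanosterol demethylase, had 292 CPM (291 and 293), 286 CPM (288 and 285) and 423 CPM (413 and 433). It was thus nearly level between the young samples (1.02-fold, with an interval that includes 1) and 1.48-fold higher in aged TRM (1.44 to 1.52, log2 ratio 0.56). With library totals only these 3 genes passed the rule (Hsd17b7 0.62). They also passed with the deposited TPM (Hsd17b7 0.61), for which no interval was computed. Under these settings the median of all genes tested was higher too, at 0.034 and 0.042 against -0.0059. Nsdhl, which acts in the same step, had only 45.2, 44.4 and 49.7 CPM.

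Dhcr7, whose reductase makes cholesterol itself, had 67.8, 64.1 and 73.5 CPM. The isomerase gene Ebp had 54.7 CPM (58.0 and 51.4), 61.6 CPM (63.9 and 59.7) and 66.5 CPM (65.8 and 67.1), and the desaturase gene Sc5d 96.2 CPM (95.4 and 97.0), 108 CPM (107 and 108) and 120.3 CPM (120.4 and 120.2). These genes were exceptions of this group in the first comparison, with a level in young TRM above that of young TCR (1.13-fold and 1.12-fold). Tm7sf2, a sterol reductase with few reads, had 9.37, 7.52 and 10.9 CPM and was 1.45-fold higher with age (1.24 to 1.69). In this group 8 of 11 genes had lower columns without overlap in young TRM (37.5% of all genes). Among them, the counting interval included 1 for Cyp51, Hsd17b7 and Dhcr7. In aged TRM 11 of 11 had higher columns (35.9% of all genes), with a median log2 ratio of 0.42. The median in the first comparison was -0.079, but -0.13 with library totals only and -0.040 with column 2 alone.

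**Figure D3:**
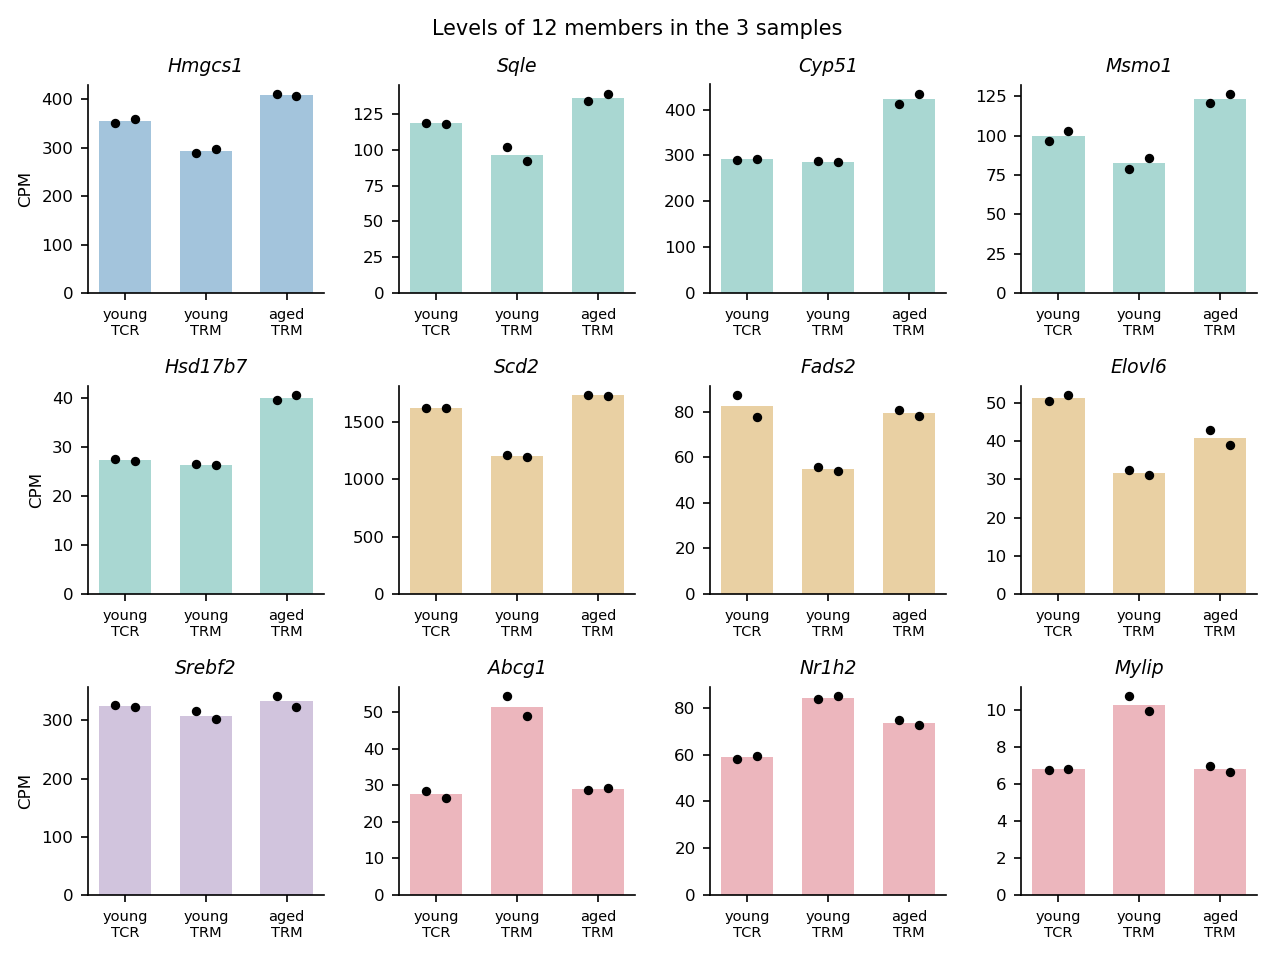
CPM (vertical axis, from 0, each panel on its own scale) of 12 members in young TCR, young TRM and aged TRM; bars are the summed columns of a sample, points the 2 columns, and colours the roles. Hmgcs1, Sqle, Msmo1, Scd2, Fads2 and Elovl6 were lowest in young TRM, Cyp51 and Hsd17b7 were highest in aged TRM, and Abcg1 and Mylip were highest in young TRM (51.4 and 10.3 CPM).

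As a description only, promoters of the members were read from RefSeq (GRCm38.p6). It gave windows of 250 bases before to 50 after the start for 30 of the 37 members. The stretches below, of 133 bases ending 63 bases before the start, come from the gene with the classical SREBP site (Hmgcs1), the member with the highest ratio of aged to young TRM (Hsd17b7), the member with most CCAAT boxes (Mvk) and a gene with a lower level in aged TRM (Mylip). They are written 5′ to 3′ in the direction of the gene, at chr13:119690156-119690288 (plus strand), chr1:169969268-169969400 (minus strand), chr5:114444074-114444206 (plus strand) and chr13:45389547-45389679 (plus strand). Capitals mark the SREBP site TCACCCCAC, the CCAAT box bound by NF-Y (ATTGG when it lies on the other strand) and the E-box CACGTG.
Hmgcs1: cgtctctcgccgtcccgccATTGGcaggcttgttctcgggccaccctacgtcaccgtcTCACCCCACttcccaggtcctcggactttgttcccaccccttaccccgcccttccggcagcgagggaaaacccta
Hsd17b7: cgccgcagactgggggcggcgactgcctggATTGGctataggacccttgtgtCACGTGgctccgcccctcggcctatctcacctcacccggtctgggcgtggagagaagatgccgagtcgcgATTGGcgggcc
Mvk: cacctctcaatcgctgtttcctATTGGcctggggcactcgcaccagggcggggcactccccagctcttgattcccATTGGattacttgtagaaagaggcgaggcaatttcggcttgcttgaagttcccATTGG
Mylip: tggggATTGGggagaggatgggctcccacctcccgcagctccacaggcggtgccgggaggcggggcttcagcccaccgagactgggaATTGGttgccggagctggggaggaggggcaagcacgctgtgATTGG

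Motifs were searched on both strands of the whole windows. CCAAT, whose factor NF-Y is known to act beside SREBP on sterol genes, was present in 15 of the 16 sterol enzyme genes with a window (93.8%), against 43.7% of 9513 tested genes and 41.1% of all 27025 genes with one. Acat2 was the sterol enzyme gene without it. Of the other roles, it was present in 4 of 5 SREBP control genes, 3 of 6 fatty acid genes and 1 of 3 sterol transport genes, namely Mylip. The SREBP site TCACCCCAC was found in Hmgcs1 alone, 137 bases before the start, and 0.641% of tested genes held it. TCACNCCAC, which includes the former, was likewise in Hmgcs1 only (1.31% of tested genes). Other forms of the SREBP site were not searched, so its absence from the other members is not shown. Sqle, Fdps, Fdft1, Scd2, Fads1, Stard4 and Abcg1 had no window. CACGTG was present in 7 of 30 members (23.3%, against 11.8%), among them Hsd17b7, Dhcr7 and Sc5d. Genes with several start sites had several windows, and a match describes letters only.

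**Figure D4:**
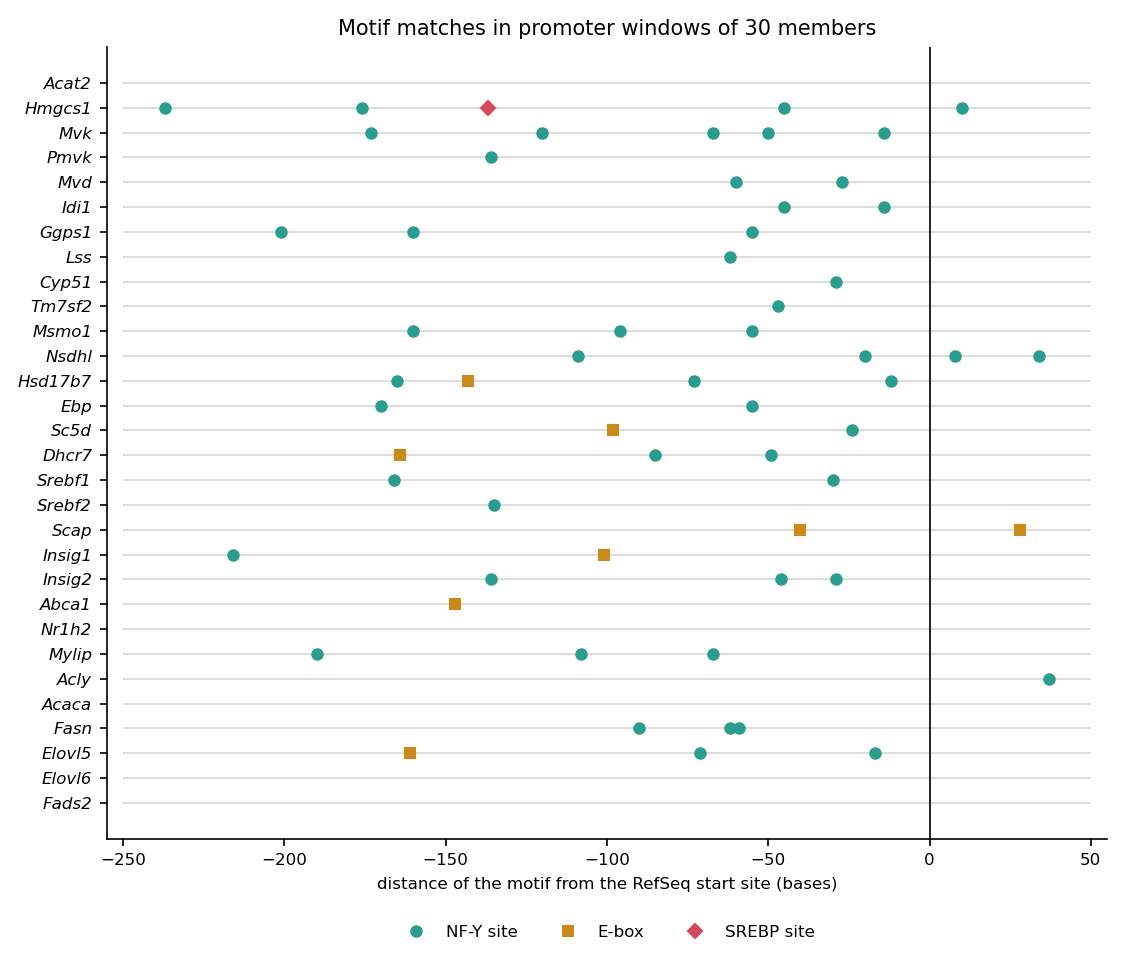
Motif matches (symbols) in the RefSeq promoter windows of the 30 members found there (rows), by distance in bases from the start site at 0, with several windows of a gene drawn on 1 line. CCAAT boxes (circles) were found in 23 of 30 members, E-boxes (squares) in 7 and the SREBP site TCACCCCAC (diamond) in Hmgcs1.

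None of the 5 genes of the SREBP control system passed the rule in either comparison. Srebf2 (gene ID 20788) had 325 CPM (326 and 324) in young TCR, 308 CPM (316 and 302) in young TRM and 332 CPM (341 and 324) in aged TRM. That was 1.05-fold lower with cytokines (1.03 to 1.08) and 1.08-fold higher with age (1.05 to 1.11). Srebf1 (gene ID 20787) had 143 CPM (147 and 138), 169 CPM (176 and 163) and 172 CPM (175 and 169). It was 1.18-fold higher with cytokines (1.14 to 1.22), and the columns of both TRM samples overlapped. Scap ran alongside, with 83.9, 96.5 and 95.8 CPM. Insig1, itself a target of SREBP, had 109 CPM (109 and 109), 112 CPM (113 and 112) and 134 CPM (140.1 and 127), a 1.19-fold difference with age (1.14 to 1.24), and Insig2 had 26.8, 28.2 and 33.2 CPM. Cleavage of SREBP is not seen in RNA, so these levels do not measure its activity.

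In the LXR branch Abcg1, Mylip and Nr1h2 were highest in young TRM. Abcg1 (gene ID 11307, chromosome 17, positions 31057694 to 31117984), which exports cholesterol to lipoproteins and restrains T cell division, had 27.5 CPM (28.4 and 26.6) in young TCR, 51.4 CPM (54.3 and 49.0) in young TRM and 29.1 CPM (28.9 and 29.3) in aged TRM. Young TRM stood apart above both others. Abcg1 rose 1.87-fold with cytokines (1.73 to 2.01) and fell 1.77-fold with age (1.64 to 1.90), the largest difference of any member in each comparison. Mylip, the ubiquitin ligase that removes lipoprotein receptors, had 6.81 CPM (6.79 and 6.83), 10.3 CPM (10.7 and 9.95) and 6.81 CPM (6.95 and 6.67). It was 1.51-fold higher in young TRM than without cytokines and 1.51-fold higher than in aged TRM, with log2 ratios of 0.53 and -0.53 that missed the rule because of the added 1. Both would pass with a pseudocount of 0.1.

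Nr1h2 (gene ID 22260), the LXR-beta gene, had 58.8 CPM (58.2 and 59.4), 84.4 CPM (83.8 and 84.9) and 73.7 CPM (74.8 and 72.6). It was 1.43-fold higher with cytokines (1.36 to 1.51) and 1.14-fold lower with age (1.09 to 1.20), with no overlap. Abca1 rested on 133, 109 and 84 reads and had 3.28 CPM (2.95 and 3.61), 3.09 CPM (2.86 and 3.28) and 2.07 CPM (1.97 and 2.16). Its young samples overlapped, and aged TRM lay below young TRM at a ratio of 0.668 (0.496 to 0.896, log2 ratio -0.42). Stard4, a cytosolic sterol carrier known as an SREBP-2 target, followed the synthesis enzymes instead, with 174, 156 and 193 CPM. The median log2 ratio of these 5 genes was 0.51 in the first comparison and -0.42 in the second, the latter -0.20 with a pseudocount of 5.

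Among fatty acid genes, the elongase gene Elovl6 and the desaturase genes Fads2 and Scd2 had the largest differences. Elovl6 (gene ID 170439, chromosome 3, positions 129532386 to 129638495), which lengthens palmitate to stearate, had 51.2 CPM (50.5 and 51.9) in young TCR, 31.7 CPM (32.5 and 31.0) in young TRM and 40.8 CPM (42.8 and 38.9) in aged TRM. It fell with cytokines, to a ratio of 0.619 (0.575 to 0.666), and was 1.29-fold higher with age (1.19 to 1.39), so aged TRM lay between the young samples. Fads2, the delta-6 desaturase of polyunsaturated fatty acids, had 82.4 CPM (87.2 and 77.6), 54.8 CPM (55.9 and 53.8) and 79.4 CPM (80.7 and 78.1). It was lower with cytokines at a ratio of 0.665 (0.628 to 0.703), just short of the rule at a log2 ratio of -0.58, and past it with library totals only (-0.63), DESeq2 size factors (-0.59) or column 1 alone (-0.66). In that comparison the median of all genes tested was also lower with library totals only (-0.037 against 0.016). With age Fads2 was 1.45-fold higher (1.37 to 1.53). Scd2 (gene ID 20250, chromosome 19, positions 44293676 to 44306864) had 1617 CPM (1619 and 1616), 1203 CPM (1212 and 1196) and 1728 CPM (1729 and 1728). The samples did not overlap, and it was 1.34-fold lower with cytokines (1.33 to 1.36) and 1.44-fold higher with age (1.42 to 1.45).

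The 3 genes of chain building were lowest in young TRM and highest in aged TRM. Acly, which supplies cytosolic acetyl-CoA to both pathways, had 379.9, 346 and 409 CPM. Acaca, the acetyl-CoA carboxylase, had 117, 106 and 131 CPM, and Fasn, the fatty acid synthase, 299.8, 268 and 325 CPM. Fads1, the delta-5 desaturase, was instead lowest in young TCR, with 58.4, 61.6 and 65.1 CPM. Elovl5, an elongase of polyunsaturated chains, was the 1 fatty acid gene that was lower with age, with 187, 191 and 175 CPM. Of the 8 genes, 6 had lower columns without overlap in young TRM (37.5% of all genes), and the median log2 ratio was -0.16. In aged TRM 7 had higher columns (35.9% of all genes), with a median of 0.29. For Fads1 the counting interval included 1 in both comparisons.

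**Figure D5:**
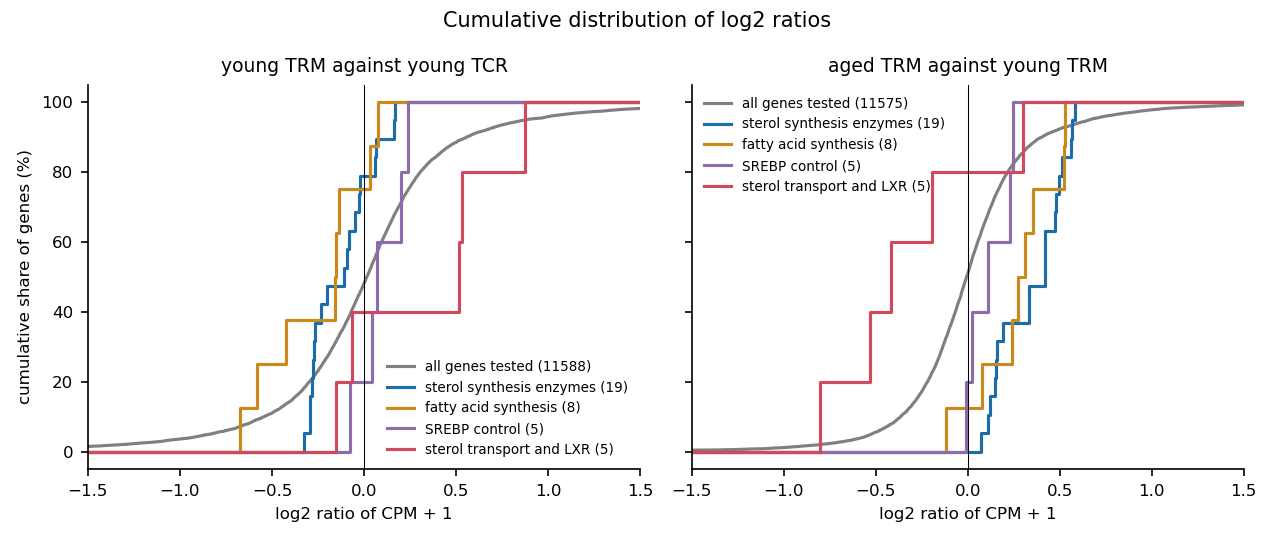
Cumulative share of genes (%) by log2 ratio of CPM plus 1 for all genes tested and for 4 groups of members, in young TRM against young TCR (left) and aged TRM against young TRM (right); sterol synthesis joins the mevalonate and squalene-to-cholesterol genes. On the right the sterol curve starts above 0 (lowest log2 ratio 0.075, median 0.42), whereas all genes centre near 0.

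Set directly against young TCR, aged TRM differed in both age and cytokines and is given as values only. The members' median log2 ratio was 0.16. Cyp51 and Hsd17b7 were highest in that respect (0.53 each), Fdps followed at 0.39, and Abca1 (-0.48) and Elovl6 (-0.32) were lowest. For Abcg1, Mylip, Fads2 and Scd2 the aged TRM level was within 1.07-fold of young TCR.

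Further genes of these pathways were read from lists of related functions, to be set against the 9.38% of all genes tested that rose and the 9.08% that fell in the first comparison. In the first comparison, other isoprenoid and sterol enzymes held 1 gene of 15 tested that rose, Fntb, and 1 that fell, Tmem97. The farnesyltransferase gene Fntb rose from 26.5 to 44.0 CPM, and Tmem97, a sterol-regulated membrane protein, fell from 65.8 to 34.6 CPM. Of 14 genes of SREBP processing 2 rose and 1 fell. Mbtps1, the site-1 protease that makes the first cut in SREBP, rose from 101 to 210.1 CPM, Sec24a, a coat protein of vesicles leaving the endoplasmic reticulum, rose from 48.3 to 108 CPM, and Erlin1 fell from 26.7 to 16.1 CPM. Of 20 genes of sterol uptake and transport 3 rose and 2 fell. Of the sterol carriers, Gramd1a rose from 123 to 268 CPM while Gramd1b fell from 205 to 117 CPM. Arl4c, a known LXR target, rose from 104 to 168 CPM. Lipa, the lysosomal acid lipase, rose from 38.1 to 59.3 CPM, and Scarb1, a lipoprotein receptor, fell from 53.0 to 33.6 CPM. Both completed the count and were named after their values were seen. Of 26 other fatty acid and glycerolipid genes 1 rose (Dgat2, a triglyceride enzyme, from 4.51 to 10.2 CPM) and 6 fell. Among the latter, Hacd1 fell from 5.01 to 1.48 CPM and Me1, the malic enzyme, from 1.60 to 0.227 CPM. Me1 was tested there only because young TCR reached 1 CPM.

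With age, where 6.29% of all genes tested rose and 3.82% fell, 0 of the 15 and 0 of the 14 genes of the first pair of lists passed the rule. Of the 20 sterol transport genes 0 rose and 1 fell, Arl4c, from 168 to 84.5 CPM. Its level in young TCR was 104 CPM, so young TRM was highest, as for Abcg1 and Mylip, and aged TRM lowest. Not all genes of LXR control shared this. Abca1 was not highest in young TRM (3.28, 3.09 and 2.07 CPM in young TCR, young TRM and aged TRM). Lpcat3, of the same list as Arl4c, was lowest there (64.3, 57.1 and 67.5 CPM). Of the 26 fatty acid and glycerolipid genes 3 rose and 0 fell. Scd1, the closest relative of Scd2, had 139, 155 and 308 CPM in young TCR, young TRM and aged TRM and rose with age (log2 ratio 0.98), and unlike Scd2 its level was not lower with cytokines. Dgat1, which makes triglycerides, rose from 23.7 to 44.2 CPM, and Me1 from 0.227 to 1.03 CPM. Me1 was near the floor, reached 1 CPM only in the aged sample of this comparison and had a wide interval (2.11 to 11.2). The median log2 ratios of the 4 lists were 0.13, 0.076, -0.074 and 0.28 with age.

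All 7 CD8 T cell markers were present (Cd8a at 747, 1822 and 1632 CPM), summing to 2831, 4258 and 3907 CPM. The 6 B cell markers summed to 46.2, 16.9 and 23.0 CPM with none at 0, 4 NK cell markers to 404, 295 and 457 CPM, 5 red cell and platelet markers to 9.84, 4.43 and 10.9 CPM (Hbb-bs at 0 in young TCR), 6 myeloid markers to 4.29, 4.43 and 3.07 CPM (Adgre1 at 0 in young TRM), and 4 CD4 and regulatory T cell markers to 31.0, 54.2 and 30.1 CPM. The B cell, NK cell and combined red cell and platelet sums were lowest in young TRM, like most synthesis enzymes, and their part in those differences was not tested. Single markers did not all follow their sums. Of the CD4 and regulatory list, Foxp3 had 1.95, 33.6 and 3.71 CPM, whereas Zbtb7b was lowest in young TRM (18.1, 8.03 and 14.3 CPM). Cd4 differed little (10.5, 12.4 and 11.6 CPM), and Cd40lg was below 1 CPM in each sample. Of the NK list, Eomes had 217, 93.5 and 65.1 CPM, Klrd1 rose with age (log2 ratio 0.99) and differed little between the young samples (0.065), whereas Ncr1 and Klrb1c, at 0.0493, 2.19 and 1.18 CPM and 0.937, 4.14 and 3.47 CPM, were highest in young TRM. The haemoglobin genes were lowest in young TCR (Hbb-bt 0.740, 2.50 and 6.15 CPM). The 6 markers of dividing cells summed to 3408, 4036 and 3618 CPM. Mki67 (873, 1048 and 890.4 CPM) and Top2a (1126, 1704 and 1428 CPM) were highest in young TRM, Ccnb1 (200.1, 127 and 153 CPM) was lowest there, and Cdk1, Mcm5 and Pcna were slightly lower in young TRM than without cytokines. In such bulk RNA, fewer cells with a transcript and less of it per cell cannot be told apart. Exons of 10 members share bases with another gene. Fdft1 shares 774 bases with Ctsb, Cyp51 166 with Akap9 and Srebf1 109 with Rai1, protein-coding genes on the opposite strand. Fdps shares 1124 bases with Gm43738 and Tm7sf2 14 with Vps51 on the same strand. Scap (785 bases), Hmgcs1 (557), Lss (381) and Idi1 (323) overlap antisense or unclassified transcripts on the opposite strand, and Scd2 (61) a microRNA gene on its own strand. Whether counting used strand, and how reads that fit both Scd1 and Scd2 were assigned, was not stated, so these values are uncertain to that extent.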

How the data were processed

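RNA of 3 samples, 1 per group, was measured by sequencing of total RNA from mouse CD8+ T cells. Per the submitters' processing notes, Bowtie and the mouse build GRCm38 (mm10) were used; the version, counting program and annotation were not given in the sources used here. The authors deposited estimated counts of reads per gene (not always whole) and TPM, which divides by transcript length, in 2 columns per sample; 24 further value columns were not used. Estimated counts were rounded and the columns summed (39915663, 36021887 and 40385477 reads). TMM factors (1.02, 0.978 and 1.01) came from edgeR 4.0.16 under R 4.3.3, and ratios and Clopper-Pearson intervals were computed in Python 3.11.15 with scipy 1.17.1 and numpy 2.4.6. Genes of at least 1 CPM in a library compared were tested, all together, and the calling rule was tested on simulated data. With 1 sample per group no p-value was computed. Reads are not independent molecules. Alternatives were scaling by totals or by DESeq2 1.42.0 size factors, other pseudocounts and filters, TPM, single columns and a 2-fold call. Calls from TPM used the fold and the columns only, without an interval. Calls from single columns could not use the overlap condition. Members, lists and the naming rule (all members, and up to 3 called genes of each further list) were chosen with earlier results of these data known. Positions are RefSeq's, for GRCm38.p6.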

Additional observations from a re-analysis of the deposited data

How the results depend on the processing

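Among values of single members under the alternatives, 716 stayed on the same side of the rule, nearly all of them not called, 16 gained a call and 3 lost one (all 3 under the 2-fold call, where every called member lost its call). All 19 sterol synthesis enzymes stayed higher in aged than in young TRM under every scaling, pseudocount, filter and unit, and with either column alone. The direction of Elovl5 and Insig1 in the first comparison and of Scap and Srebf1 in the second, all near 0, changed with the setting. In the first comparison, members that fell numbered 2 with library totals only, DESeq2 size factors, a pseudocount of 0.1 or column 1 alone, members that rose numbered 2 with a pseudocount of 0.1, and 0 of each passed 2-fold. With age, members that rose numbered 3 with library totals only or TPM, 1 with a pseudocount of 0.1 or column 1 alone and 2 with column 2 alone; 2 fell with a pseudocount of 0.1 and 0 at 2-fold. The first comparison's median for SREBP control genes was 0.020 with library totals only, 0.0358 with TPM and 0.031 with column 1 alone, and that for sterol transport and LXR genes 0.46 with library totals only and 0.37 with a pseudocount of 5 (-0.20 with age). With library totals only, 1 sterol enzyme was higher without overlap in young TRM. With TPM the members' median with age was 0.31. The median of all genes tested moved too, from 0.016 to -0.037 with library totals only in the first comparison. With age it moved from -0.0059 to 0.034 with library totals only and to 0.042 with TPM. Library totals leave out the TMM factors, which moves the ratios of all genes in a comparison together. The cause of the TPM shift was not tested. Over all genes, a pseudocount of 5 lowered the counts called from 1087 higher and 1052 lower to 772 and 565 in the first comparison, and from 728 and 442 to 323 and 258 with age. At 2-fold 482 and 417, and 259 and 132, passed, and with at least 10 CPM 801 and 609, and 311 and 285. With library totals only the split moved to 980 and 1183, and to 790 and 392. No paired analysis was possible because each group is 1 sample and the column numbers are not known to pair samples. With 1 sample per group, differences between mice or cultures of the size seen here cannot be assessed, whatever the read depth.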
